A study of Mus musculus with 24 samples.

Results

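The 35 genes described here encode enzymes of sterol and fatty acid synthesis, the proteins that switch these pathways on and off, and carriers of sterol inside the cell. They were taken by gene symbol from a list of names drawn up with earlier results of these data known, although no measured value enters the rule, and each symbol matched 1 of the 55401 genes in the authors' count table. The list holds 19 sterol enzymes, 5 regulators, 3 sterol transport genes and 8 fatty acid enzymes, and all 35 passed the filter on low counts that left 11717 genes for testing. The mRNA was measured in bone marrow-derived macrophages of C57BL/6J wild-type mice, cells grown from marrow in medium conditioned by L929 cells. QuantSeq FWD libraries, each made with 15 cycles of PCR from 150 ng of RNA, place reads near the 3' ends of polyadenylated transcripts. The 6 groups of 4 libraries each were macrophages given S14 (sphingomyelin d18:1/14:0, a membrane sphingolipid) at 30 µM for 18 h or for 3 h, macrophages given LPS (lipopolysaccharide, the bacterial cell wall component sensed by Toll-like receptor 4) at 100 ng/mL for 18 h or for 3 h, and control macrophages collected at 18 h or at 3 h. The sample labels call these controls untreated, the word used here, whereas their columns in the count table are marked Veh, so whether they were given a vehicle is not known. All groups share genotype and culture. The labels do not say whether the 4 libraries of a group came from separate mice, so the p-values measure the spread between these libraries, which may be technical.

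Cells build cholesterol from acetyl-CoA by way of mevalonate, farnesyl diphosphate, squalene and lanosterol, and build fatty acids from the same precursor through malonyl-CoA. Both branches are driven by the SREBP transcription factors, which are made as precursors in the membrane of the endoplasmic reticulum. When sterols are scarce, the escort protein SCAP carries the precursors to the Golgi apparatus, where they are cut and released to the nucleus. When sterols are plentiful, INSIG proteins hold SCAP back. SREBP-2 acts mostly on sterol genes and SREBP-1 mostly on fatty acid genes, and at promoters they work with the factors NF-Y and Sp1. In macrophages these genes are also known to respond to inflammatory stimuli and to oxysterols.

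Promoters of 6 members are shown because 4 of their genes are sterol enzymes and 2 are fatty acid enzymes that fell with LPS at one time or both. The 250 bases before the annotated start are given 5' to 3' on the gene's strand, from RefSeq on GRCm38.p6. Capitals mark every match, on either strand, to CCAAT (bound by NF-Y), GGGCGG (bound by Sp1), TCACNCCAC (a sterol regulatory element) or CACGTG (an E-box), and overlapping matches run together. The windows are chr13:119690101-119690350 on the plus strand for Hmgcs1, chr8:122443423-122443672 on the minus strand for Mvd, chr5:4104698-4104947 on the minus strand for Cyp51, and chr8:64733579-64733828 on the minus strand for Msmo1. Those of the fatty acid genes are chr11:120824548-120824797 for Fasn and chr19:10101504-10101753 for Fads2, both on the minus strand.
Hmgcs1: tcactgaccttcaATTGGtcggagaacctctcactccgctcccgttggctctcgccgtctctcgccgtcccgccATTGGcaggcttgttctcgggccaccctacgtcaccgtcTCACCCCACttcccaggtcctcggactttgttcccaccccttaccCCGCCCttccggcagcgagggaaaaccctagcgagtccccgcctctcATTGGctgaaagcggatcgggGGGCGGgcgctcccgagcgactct
Mvd: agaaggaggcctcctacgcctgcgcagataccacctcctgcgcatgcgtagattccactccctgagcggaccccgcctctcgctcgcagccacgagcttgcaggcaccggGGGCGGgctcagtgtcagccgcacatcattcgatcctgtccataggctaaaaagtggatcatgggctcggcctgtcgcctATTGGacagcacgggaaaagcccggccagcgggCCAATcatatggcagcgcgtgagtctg
Cyp51: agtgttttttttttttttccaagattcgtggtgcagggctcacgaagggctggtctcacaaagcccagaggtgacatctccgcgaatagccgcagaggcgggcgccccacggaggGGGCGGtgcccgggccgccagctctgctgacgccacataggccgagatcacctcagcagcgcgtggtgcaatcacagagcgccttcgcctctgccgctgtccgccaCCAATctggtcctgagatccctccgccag
Msmo1: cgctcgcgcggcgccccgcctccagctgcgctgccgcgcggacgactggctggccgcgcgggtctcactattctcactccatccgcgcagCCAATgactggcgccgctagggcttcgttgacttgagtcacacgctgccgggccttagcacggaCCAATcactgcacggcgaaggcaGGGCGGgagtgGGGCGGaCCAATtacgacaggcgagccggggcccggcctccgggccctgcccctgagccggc
Fasn: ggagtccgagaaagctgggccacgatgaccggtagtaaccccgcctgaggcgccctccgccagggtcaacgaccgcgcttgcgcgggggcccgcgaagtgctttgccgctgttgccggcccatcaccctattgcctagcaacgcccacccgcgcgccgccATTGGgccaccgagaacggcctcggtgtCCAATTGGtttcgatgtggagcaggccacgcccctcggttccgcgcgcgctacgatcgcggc
Fads2: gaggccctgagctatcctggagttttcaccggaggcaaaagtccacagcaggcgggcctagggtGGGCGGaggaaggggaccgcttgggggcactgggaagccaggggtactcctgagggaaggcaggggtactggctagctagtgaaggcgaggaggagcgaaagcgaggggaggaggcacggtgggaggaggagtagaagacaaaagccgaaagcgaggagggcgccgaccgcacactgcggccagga
Of the 35 members, 27 had a promoter entry, with 35 windows in all because some genes have several starts. CCAAT was present for 15 of 16 sterol enzymes (78.9% of their 19 windows) and for 1 of 5 fatty acid enzymes, Fasn (20% of 5 windows), against 33.9% of all 32841 promoter windows. GGGCGG was present in 84.2% of the sterol windows and 40% of the fatty acid windows, against 32.7% of all windows. TCACNCCAC was found in 1 member, Hmgcs1, where it lies 129 bases before the start, and in 1.05% of all windows. CACGTG was found in 14.3% of the members' windows and 6.02% of all windows. The members' windows were richer in G and C, with a median of 62.8% for all members, 62.8% for the sterol enzymes and 64.8% for the fatty acid enzymes, against 52.4% for all windows. The part of this base composition in the shares was not tested. A match is a run of letters and not a shown binding site.

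The libraries held 3334182 to 6350251 reads in genes, with 346 to 284755 reads per member over all libraries, and the members made up 0.268% to 0.52% of the reads. All 7 markers of macrophages, the labelled cell type, had reads, with summed levels of 31400 to 32500 CPM with S14 at 18 h, 15500 to 23500 CPM with LPS at 18 h and 31000 to 44800 CPM in untreated cells at 18 h. At 3 h these sums were 18000 to 19800 CPM with S14, 16700 to 18500 CPM with LPS and 18600 to 20000 CPM in untreated cells. Most of this sum was Lyz2, which averaged 10800 CPM with LPS and 28500 CPM in untreated cells at 18 h, while Fcgr1 averaged 2260 CPM with LPS and 549 CPM untreated and Itgam 1330 CPM with LPS and 568 CPM untreated, so the markers moved both ways. Markers of B cells, T cells, neutrophils, dendritic cells, fibroblasts, erythroid cells and mast cells were low, but 2 sums were raised with LPS at 18 h. The neutrophil sum was 40.3 to 49.4 CPM with LPS and 1.74 to 4.64 CPM untreated, nearly all of it S100a8 (45.5 CPM with LPS), with S100a9 at 0.459 CPM and Ly6g, Mpo and Elane at or near 0. The fibroblast sum was 10.3 to 17.5 CPM with LPS and 0 to 1.58 CPM untreated, nearly all of it Dcn (13.8 CPM with LPS), with Col3a1 and Pdgfra at 0. The part of these cells in the results was not tested. Replicate 4 of the untreated 18 h cells was unlike its group, with a spread of log2 deviations of 0.518 against 0.327 to 0.345 in the other libraries, so results at 18 h are given with and without it. Exons of Hmgcs1, Idi1, Fdft1, Lss, Cyp51, Lbr, Srebf1, Scap, Npc1 and Elovl6 overlap a gene on the other strand, and the sources used here do not give the strand setting of the counting, so it is not known whether reads of such partners were kept apart. In bulk RNA, fewer cells with a transcript and less of it per cell cannot be told apart.

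Levels are CPM, counts put on a common library size by TMM, a method that sets libraries to a typical gene, and they are compared within a gene only. A gene was called when its adjusted p was under 0.05 in edgeR's quasi-likelihood test with Benjamini-Hochberg adjustment over all 11717 genes. All directions are relative to that typical gene. Over all genes the median log2 fold change was -0.11 for LPS at 3 h, 0.07 for S14 against LPS at 3 h and within 0.04 of 0 otherwise. Scaling to spike-in reads instead shifted the median log2 fold change at 18 h by -0.97 for S14 and -0.64 for LPS (-0.48 and -0.16 without the unlike untreated library), and that at 3 h by 0.11 for S14 and 0.34 for LPS.

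Summed over the 19 sterol enzymes, the level was lowest with LPS at 18 h. It was 789 ± 50.9 CPM with S14 and 324 ± 10.9 CPM with LPS at 18 h, against 967 ± 86.3 CPM in untreated cells at 18 h (SD, n = 4 each, as in all means here). At 3 h it was 1320 ± 156 CPM with S14 and 681 ± 59.6 CPM with LPS, against 1160 ± 145 CPM in untreated cells. The 8 fatty acid enzymes summed to 436 ± 19 CPM with S14 and 229 ± 21.5 CPM with LPS at 18 h, against 399 ± 39.7 CPM in untreated cells. Their sums at 3 h were 503 ± 24.2 CPM with S14 and 387 ± 16.8 CPM with LPS, against 556 ± 44.5 CPM in untreated cells. For 17 of the 19 sterol enzymes the group with the lowest mean was LPS at 18 h, and for the other 2, Mvk and Mvd, it was LPS at 3 h. The group with the highest mean was S14 at 3 h for 14 of the 19. Among the 8 fatty acid enzymes, the lowest mean was found with LPS at 18 h for 5 and with LPS at 3 h for 3.

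**Figure D1:**
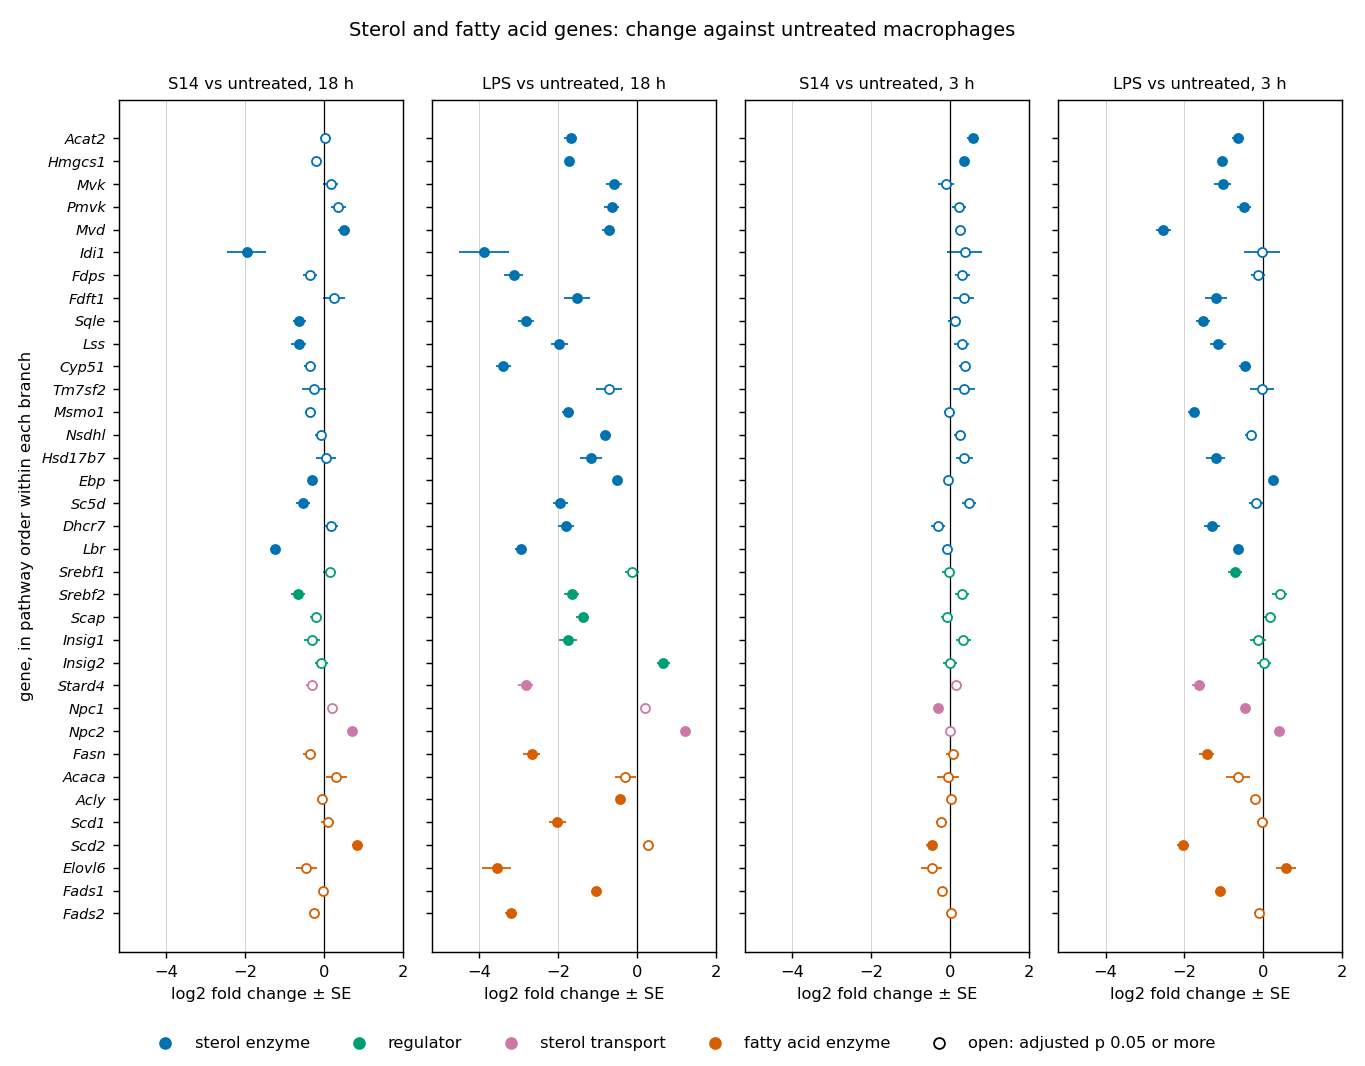
Log2 fold change ± SE against untreated cells of the same time (horizontal axes) for all 35 members (vertical axis, ordered by branch), with S14 and LPS at 18 h and at 3 h in separate panels and filled points for called genes. With LPS at 18 h, 28 members lie below 0 and are called, while with S14 at 3 h 4 members are called in all.

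LPS for 18 h lowered most of both branches. With LPS, 28 of the 35 members were called lower and 2 higher, against a background of 55.6% of all genes called (28.3% lower and 27.3% higher). Without replicate 4 of the untreated cells the counts were 27 lower and 3 higher. Spike-in scaling called 30 lower and none higher (25 lower and 1 higher without that library). Over all genes that scaling called 5221 (4018 without that library). Of the sterol enzymes, 18 of 19 fell, with a median log2 fold change of -1.72. Of the fatty acid enzymes, 6 of 8 fell, with a median of -1.53, against -0.04 over all genes tested. The difference between the branches was not tested. For 27 members every LPS library lay below every untreated one, and for 2, Insig2 and Npc2, every LPS library lay above; among all genes these shares were 21.7% below and 22.4% above.

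Cyp51, the lanosterol demethylase, had the largest fall among members above 10 CPM. Its level was 9.84, 7.05, 8.5 and 8.08 CPM with LPS at 18 h, against 85.5, 75.4, 96.6 and 94.9 CPM in untreated cells (log2 fold change -3.39 ± 0.19, adjusted p = 4.34e-16). The groups did not overlap, and the lowest untreated library lay far above the highest LPS library. Fdps, which makes farnesyl diphosphate, had 4.45, 5.54, 9.85 and 5.24 CPM with LPS, against 47.8, 36.7, 56.2 and 79.3 CPM in untreated cells (-3.12 ± 0.24, adjusted p = 2.03e-12). Its exons overlap those of Gm43738 on the same strand, so its reads could be split between the 2 genes. Sqle, squalene epoxidase, had 6.32, 6.04, 4.03 and 10.3 CPM with LPS, against 47.4, 46, 50.5 and 44.8 CPM in untreated cells (-2.81 ± 0.21, adjusted p = 4.05e-14). Lbr, the lamin B receptor of the nuclear envelope, which also has sterol reductase activity, had 11.9, 9.06, 10.7 and 16.4 CPM with LPS, against 86.3, 86.9, 92.1 and 110 CPM in untreated cells (-2.95 ± 0.14, adjusted p = 5.29e-22). Each of these 4 enzymes was lower in all LPS libraries than in any untreated library, and each stayed lower under spike-in scaling.

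The remaining sterol enzymes fell at the start, the middle and the end of the pathway. Hmgcs1, the HMG-CoA synthase whose promoter is shown above, averaged 32.6 ± 2.93 CPM with LPS at 18 h and 107 ± 2.74 CPM in untreated cells (-1.72 ± 0.11, adjusted p = 5.13e-17). Acat2, which joins acetyl-CoA units, averaged 8.26 ± 1.37 CPM with LPS and 26.6 ± 4.35 CPM in untreated cells. The mevalonate kinases and decarboxylase fell less: the log2 fold changes were -0.58 ± 0.21 for Mvk, -0.64 ± 0.19 for Pmvk and -0.72 ± 0.16 for Mvd. The call of Mvk was lost without replicate 4 of the untreated cells (-0.44, adjusted p = 0.0771) and without replicate 1 of the LPS cells (-0.51, adjusted p = 0.0588). Idi1, the isopentenyl diphosphate isomerase, was close to the detection limit, with 3, 1, 1 and 0 reads in the LPS libraries against 12, 32, 21 and 47 reads in untreated ones (adjusted p = 1.28e-06). Between squalene and cholesterol, the log2 fold changes of the called genes ran from -1.97 ± 0.21 for Lss, the lanosterol synthase, to -0.5 ± 0.1 for Ebp, a sterol isomerase. Dhcr7, the reductase of the last step to cholesterol, averaged 5.24 ± 0.978 CPM with LPS and 18.4 ± 0.422 CPM in untreated cells (-1.8 ± 0.2, adjusted p = 2.21e-10). Tm7sf2, a second sterol reductase, did not pass the test (4.6 ± 2.08 CPM with LPS, 7.51 ± 3.33 CPM untreated, adjusted p = 0.0537), and its exons overlap those of Vps51 on the same strand.

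**Figure D2:**
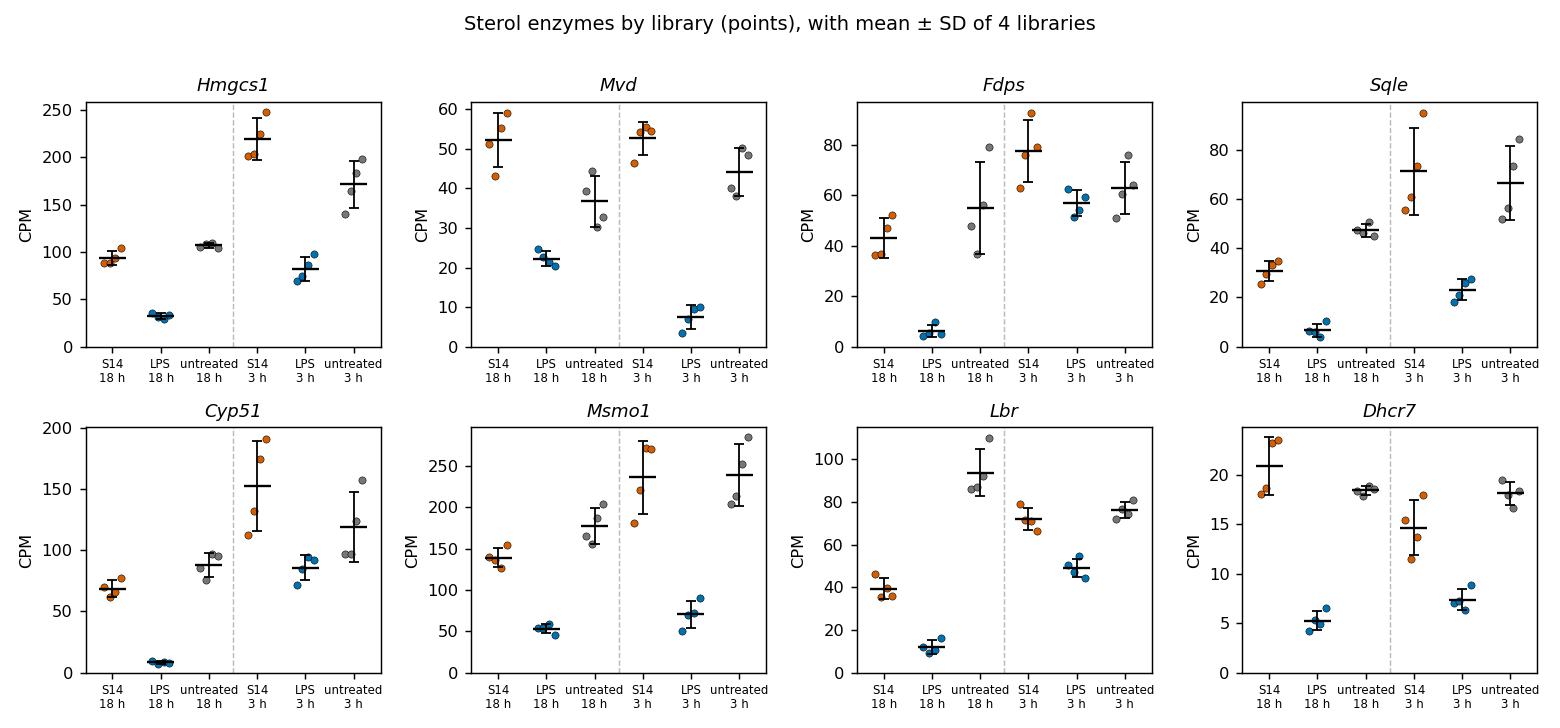
CPM of 8 sterol enzymes in every library (points), with bars for the mean ± SD of 4 libraries, for S14, LPS and untreated cells at 18 h and then at 3 h. Cyp51, Fdps and Lbr are lowest with LPS at 18 h, while Mvd is lowest with LPS at 3 h.

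Among the regulators, the gene for SREBP-2 and its partners fell at 18 h with LPS, while that for SREBP-1 did not pass the test. Srebf2 had 40.8, 43.3, 52.6 and 57 CPM with LPS, against 106, 135, 127 and 241 CPM in untreated cells (-1.65 ± 0.19, adjusted p = 8.26e-08; -1.34 without untreated replicate 4, the library at 241 CPM). Scap, the escort of both SREBPs, averaged 14.4 ± 4.12 CPM with LPS and 37.8 ± 4.85 CPM in untreated cells (-1.38 ± 0.16, adjusted p = 1.44e-09). Insig1, which SREBPs induce and which retains SCAP, averaged 12 ± 2.49 CPM with LPS and 40.5 ± 12.1 CPM in untreated cells (-1.75 ± 0.23, adjusted p = 2.58e-07). These 3 genes had no overlap between the groups, and the direction of each held under spike-in scaling. Insig2, the second retention protein, rose: it had 39.1, 36.5, 27.8 and 30.8 CPM with LPS, against 22.1, 19, 18.3 and 25 CPM in untreated cells (0.67 ± 0.17, adjusted p = 0.000658). Under spike-in scaling that rise was gone, at -0.08 (0.59 without untreated replicate 4). Srebf1 averaged 26.8 ± 2.47 CPM with LPS and 29.4 ± 9.48 CPM in untreated cells (adjusted p = 0.524).

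The 3 transport genes moved apart at 18 h with LPS. Stard4, a cytosolic sterol carrier, had 4.22, 6.29, 5.59 and 4.8 CPM with LPS, against 31.9, 30.7, 47.1 and 37.8 CPM in untreated cells (-2.82 ± 0.19, adjusted p = 8.51e-17). Npc2, the soluble lysosomal protein that hands cholesterol to NPC1, had 4830, 5080, 4650 and 3790 CPM with LPS, against 2360, 2190, 1960 and 1420 CPM in untreated cells (1.21 ± 0.1, adjusted p = 1.46e-12). Under spike-in scaling Npc2 was at 0.63 and no longer called (adjusted p = 0.0637), and without untreated replicate 4 it was at 0.9 and called (adjusted p = 0.00109). Npc1, the lysosomal membrane protein, averaged 229 ± 14.1 CPM with LPS and 197 ± 37.7 CPM in untreated cells (0.21 ± 0.1, adjusted p = 0.0613).

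**Figure D3:**
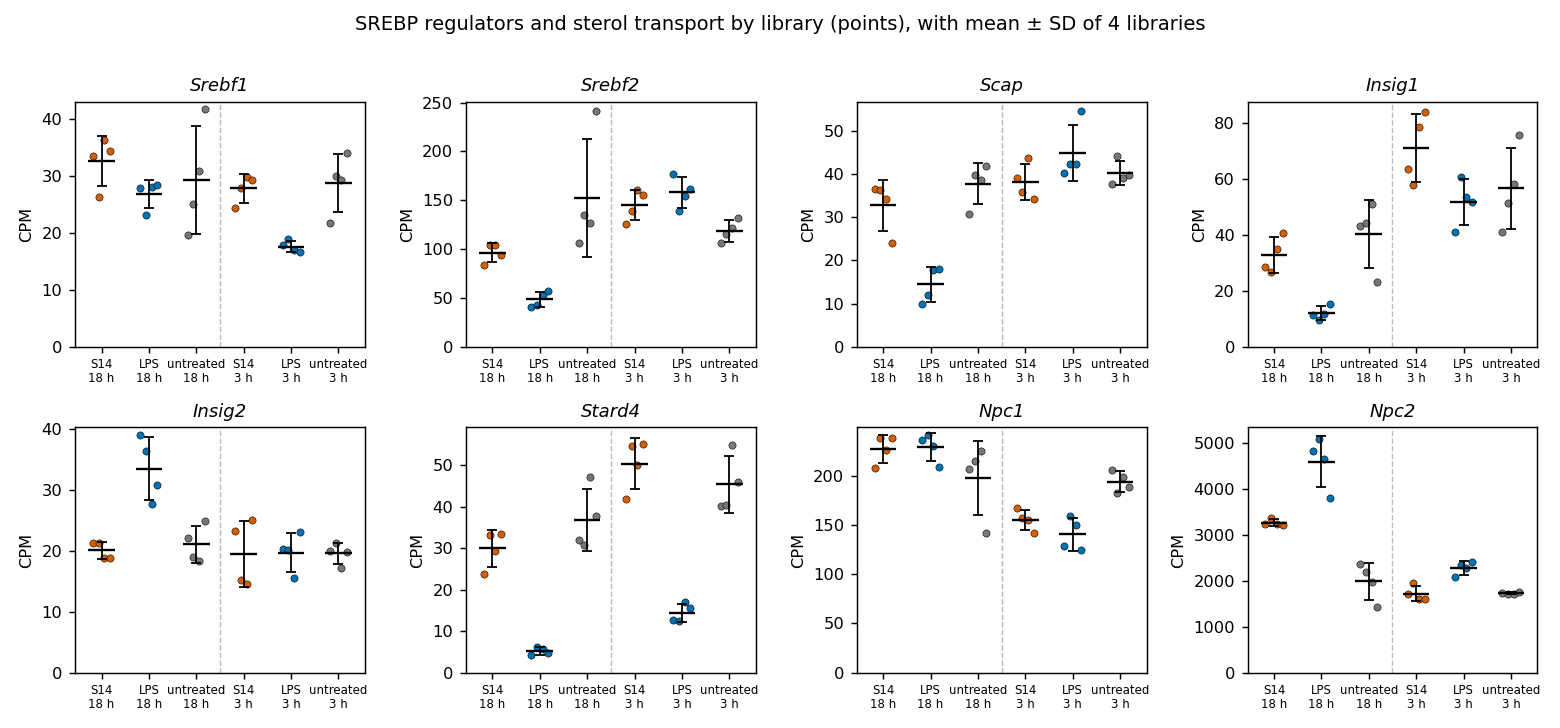
CPM of the 5 regulators and 3 sterol transport genes in every library (points), with bars for the mean ± SD of 4 libraries, for S14, LPS and untreated cells at 18 h and then at 3 h. Stard4 is below 18 CPM in all LPS libraries and above 23 CPM in all others, and Npc2 is highest with LPS at 18 h.

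In the fatty acid branch 6 genes fell with LPS at 18 h, from Elovl6, Fads2 and Fasn with the largest log2 fold changes to Acly with the smallest. Fads2, a desaturase of polyunsaturated fatty acids, had 5.86, 8.05, 5.37 and 6.11 CPM with LPS, against 45.5, 51.1, 68.6 and 65.3 CPM in untreated cells (-3.19 ± 0.16, adjusted p = 5.63e-21). Elovl6, which lengthens saturated chains, had 0.703, 1.01, 0.671 and 0.655 CPM with LPS, against 8.13, 6.01, 9.09 and 13.5 CPM in untreated cells (-3.56 ± 0.37, adjusted p = 4.77e-11). These were 3, 4, 3 and 3 reads with LPS and 42, 38, 65 and 77 reads untreated, so Elovl6 with LPS was close to the detection limit. In both genes every LPS library lay far below every untreated library. Fasn, the fatty acid synthase, averaged 5.04 ± 2.38 CPM with LPS and 32.7 ± 5.75 CPM in untreated cells (-2.67 ± 0.21, adjusted p = 9.23e-15). The desaturase genes Scd1 and Scd2, which both lie on chromosome 19, differed. Scd1 averaged 5.55 ± 1.84 CPM with LPS and 22.3 ± 5.05 CPM in untreated cells (-2.02 ± 0.21, adjusted p = 6.76e-11). Scd2 averaged 82.4 ± 14.4 CPM with LPS and 68.5 ± 13.4 CPM in untreated cells (0.27 ± 0.13, adjusted p = 0.0828). Without untreated replicate 4 Scd2 was at 0.35 (adjusted p = 0.0212). Fads1, a second polyunsaturated fatty acid desaturase, fell by 1.03 ± 0.1 on the log2 scale and Acly, which makes cytosolic acetyl-CoA from citrate, fell by 0.44 ± 0.1. Acaca, the acetyl-CoA carboxylase, did not pass the test (9.56 ± 4.69 CPM with LPS, 11.9 ± 1.64 CPM untreated, adjusted p = 0.354).

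**Figure D4:**
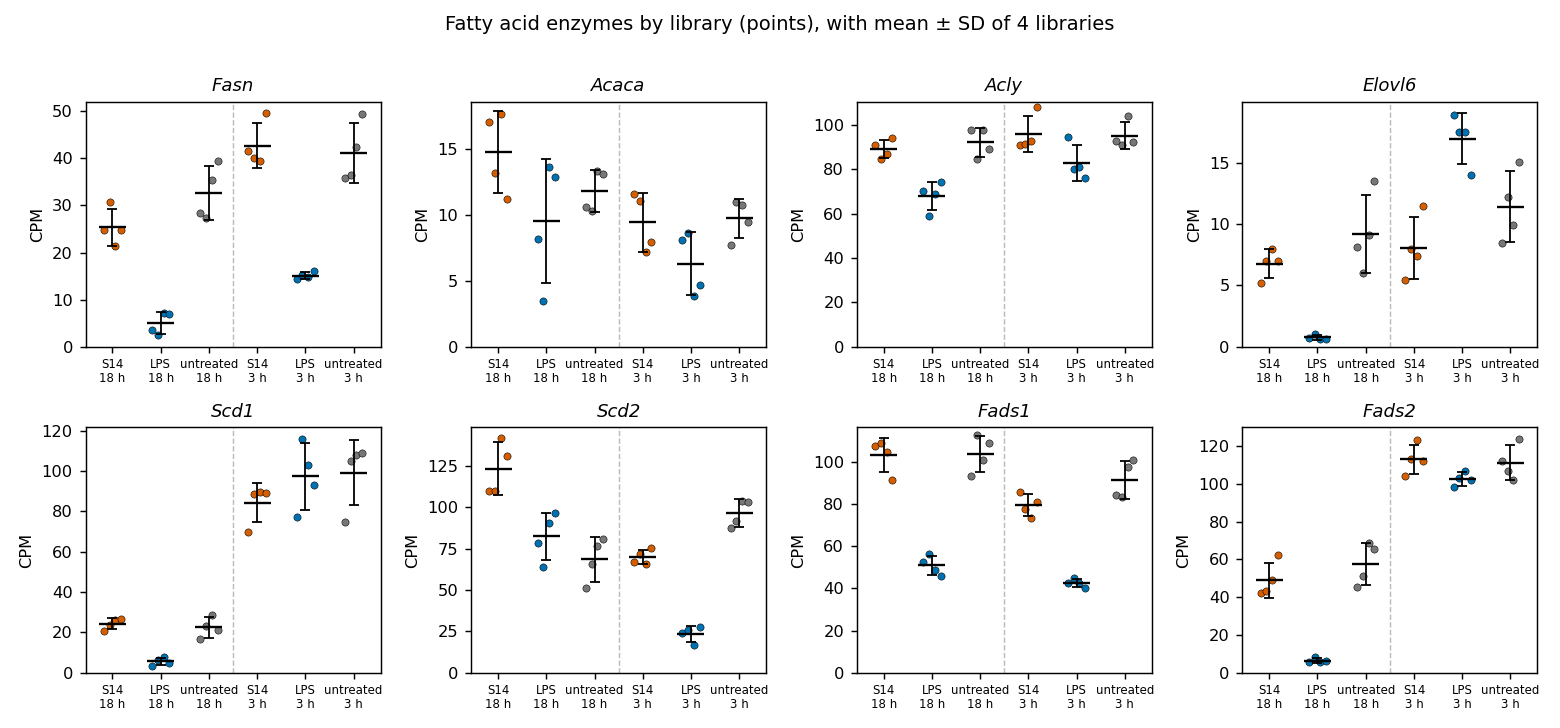
CPM of the 8 fatty acid enzymes in every library (points), with bars for the mean ± SD of 4 libraries, for S14, LPS and untreated cells at 18 h and then at 3 h. Scd2 is lowest with LPS at 3 h, at 16.5 to 27.5 CPM, and highest with S14 at 18 h, at 110 to 142 CPM, whereas Scd1 is highest in the 3 groups at 3 h.

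At 3 h LPS lowered 13 of 19 sterol enzymes and 3 of 8 fatty acid enzymes on the TMM scale. In all it lowered 19 members and raised 3, against a background of 55.5% of all genes called (30.2% lower and 25.3% higher). Under spike-in scaling 3 of the 19 sterol enzymes and 2 of the 8 fatty acid enzymes were called lower (8 and 3 without the unlike untreated library). The medians were -0.64 for the sterol enzymes and -0.42 for the fatty acid enzymes, against -0.11 over all genes. Of the members that were lower, 16 were lower at both times, which is 57.1% of the 28 at 18 h and 84.2% of the 19 at 3 h. All 13 sterol enzymes lower at 3 h were also lower at 18 h. Over all genes 28.3% were called lower at 18 h and 30.2% at 3 h. The share of all genes lower at both times was not counted, so the usual size of such an overlap is not known. Srebf1, Npc1 and Scd2 were called lower at 3 h and not at 18 h.

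Mvd, the mevalonate diphosphate decarboxylase, fell most at 3 h. It had 3.52, 6.96, 9.47 and 10.1 CPM with LPS, against 40, 38.1, 50.2 and 48.3 CPM in untreated cells (-2.54 ± 0.19, adjusted p = 1.74e-15). Scd2 had 24.1, 25.9, 16.5 and 27.5 CPM with LPS, against 87.4, 91.7, 104 and 103 CPM in untreated cells (-2.04 ± 0.15, adjusted p = 4.12e-15). Both lay far below every untreated library. Msmo1, the methylsterol oxidase, had 50.3, 70.2, 72.1 and 89.8 CPM with LPS, against 204, 214, 253 and 285 CPM in untreated cells (-1.76 ± 0.14, adjusted p = 1.33e-11). Sqle had 18.1, 21.2, 25.7 and 27.5 CPM with LPS, against 51.8, 56.3, 73.3 and 84.3 CPM in untreated cells (-1.52 ± 0.18, adjusted p = 3.92e-09). Stard4 had 12.7, 12.5, 17 and 15.6 CPM with LPS, against 40.3, 40.5, 54.8 and 46 CPM in untreated cells (-1.64 ± 0.17, adjusted p = 1.57e-11). These 3 genes also had no overlap between the groups. Among all genes 27.1% had every LPS library below every untreated one, and 24.4% above. Fasn had 14.3, 15.3, 14.8 and 16.1 CPM with LPS, against 35.8, 36.5, 42.5 and 49.5 CPM in untreated cells (-1.44 ± 0.18, adjusted p = 5.12e-09).

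Of the 5 regulators, 1 was called at 3 h with LPS on the TMM scale with all libraries, the gene of SREBP-1. Which regulators were called depended on the processing. Srebf1 averaged 17.6 ± 1.03 CPM with LPS and 28.7 ± 5.13 CPM in untreated cells (-0.71 ± 0.18, adjusted p = 0.000883). Srebf2 averaged 158 ± 16 CPM with LPS and 119 ± 11 CPM in untreated cells (0.41 ± 0.18, adjusted p = 0.0541), and every LPS library lay above every untreated one. Without replicate 4 of the untreated cells at 18 h, which enters the shared estimate of the spread, the adjusted p of Srebf2 was 0.000275. Srebf2 was also called higher by DESeq2, with its size factors in edgeR, without the filter and with the compared groups alone. The second table's reads and a replicate block called it higher too. Under spike-in scaling Srebf1 was not called (-0.35, adjusted p = 0.536), nor was Srebf2 (0.79, adjusted p = 0.112). Without that untreated library, spike-in scaling called Srebf2 (0.79, adjusted p = 0.00304) and not Srebf1 (-0.36, adjusted p = 0.308). The other 3 regulators did not pass the test: Scap, Insig1 and Insig2 had log2 fold changes of 0.16, -0.13 and 0.01 with adjusted p of 0.384, 0.614 and 0.975. Npc2 rose to 2270 ± 143 CPM with LPS, against 1730 ± 27.1 CPM untreated (0.4 ± 0.1, adjusted p = 0.00102), and Npc1 fell to 141 ± 16.7 CPM with LPS, against 194 ± 10.8 CPM untreated (-0.46 ± 0.1, adjusted p = 0.000151). On the TMM scale the lysosomal partners thus moved in opposite directions. Under spike-in scaling Npc2 stayed higher (0.73, adjusted p = 0.0479) and Npc1 was not called (-0.14, adjusted p = 0.77). Without untreated replicate 4 at 18 h that scaling gave the same log2 fold changes, with adjusted p of 0.00366 for Npc2 and 0.664 for Npc1. The calls of Ebp (0.25 ± 0.1, adjusted p = 0.0302), Elovl6 (0.58 ± 0.25, adjusted p = 0.0434) and Pmvk (-0.49 ± 0.19, adjusted p = 0.024) did not hold on leaving out single libraries. That of Pmvk ended without LPS replicate 1 (adjusted p = 0.187), LPS replicate 2 or untreated replicate 3, and that of Ebp without LPS replicate 1, 2 or 3 or untreated replicate 2 (adjusted p up to 0.0978). That of Elovl6 ended without replicate 1, 2 or 3 of either group (adjusted p up to 0.145). That of Cyp51 (-0.47 ± 0.15, adjusted p = 0.00808) ended without untreated replicate 4 at 3 h (adjusted p = 0.0629). Under spike-in scaling 6 members were called lower and 1 higher at 3 h (12 and 4 without the untreated library that stood apart at 18 h), and no called member changed direction. Over all genes that scaling called 3296 (4714 without that library), where TMM called 6500.

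The LPS response at 18 h was compared with that at 3 h by a test of the difference between the log2 fold changes. The difference was called for 24 members, 18 with a lower and 6 with a higher log2 fold change at 18 h, against a background of 51.2% of all genes called (26.1% lower and 25.1% higher). Spike-in scaling called 22 lower and 1 higher (18 and 2 without untreated replicate 4 at 18 h). Over all genes it called 4857 (4262 without that library). Elovl6 differed most, by -4.14 ± 0.45 on the log2 scale (adjusted p = 2.6e-10): it averaged 0.759 ± 0.166 CPM with LPS and 9.18 ± 3.14 CPM untreated at 18 h, and 17 ± 2.09 CPM with LPS and 11.4 ± 2.88 CPM untreated at 3 h. The size of this difference is uncertain, since the LPS libraries at 18 h held 3, 4, 3 and 3 reads of Elovl6. Fads2 (-3.08 ± 0.2, adjusted p = 6.79e-17), Fdps (-2.98 ± 0.3, adjusted p = 1.74e-09) and Cyp51 (-2.92 ± 0.24, adjusted p = 1.04e-11) followed. At 3 h Fads2 averaged 103 ± 3.68 CPM with LPS and 111 ± 9.31 CPM untreated, and Fdps 57 ± 5.07 CPM with LPS and 62.9 ± 10.3 CPM untreated. Neither was called at 3 h, and both were called lower at 18 h. Mvd (1.82 ± 0.25, adjusted p = 5.89e-08) and Scd2 (2.31 ± 0.2, adjusted p = 1.05e-12) went the other way, with a log2 fold change at 18 h nearer to 0 than at 3 h. With LPS, Mvd averaged 22.3 ± 1.83 CPM at 18 h and 7.52 ± 3 CPM at 3 h, and Scd2 averaged 82.4 ± 14.4 CPM at 18 h and 23.5 ± 4.87 CPM at 3 h. For Msmo1 (0.01 ± 0.21, adjusted p = 0.971) and Fads1 (0.07 ± 0.14, adjusted p = 0.699), called lower at both times, the difference did not pass the test. The regulators Srebf2, Scap and Insig1 had lower log2 fold changes at 18 h, with differences of -2.06 ± 0.26, -1.54 ± 0.22 and -1.62 ± 0.31. The higher values of Srebf1, Insig2, Npc1 and Npc2 at 18 h turned negative under spike-in scaling (-0.6, -0.43, -0.21 and -0.09) and were above 0 again without untreated replicate 4 (0.29, 0.24, 0.06 and 0.18). The call of Srebf1 also ended on leaving out any of 11 single libraries (adjusted p up to 0.119), and that of Insig2 without LPS replicate 1 at 18 h (adjusted p = 0.054) or LPS replicate 3 at 3 h (adjusted p = 0.0597). That of Lss (-0.82 ± 0.3) ended without untreated replicate 4 at 18 h (-0.56, adjusted p = 0.0802), LPS replicate 3 at 18 h (adjusted p = 0.0566) or untreated replicate 1 at 3 h (adjusted p = 0.0507).

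**Figure D5:**
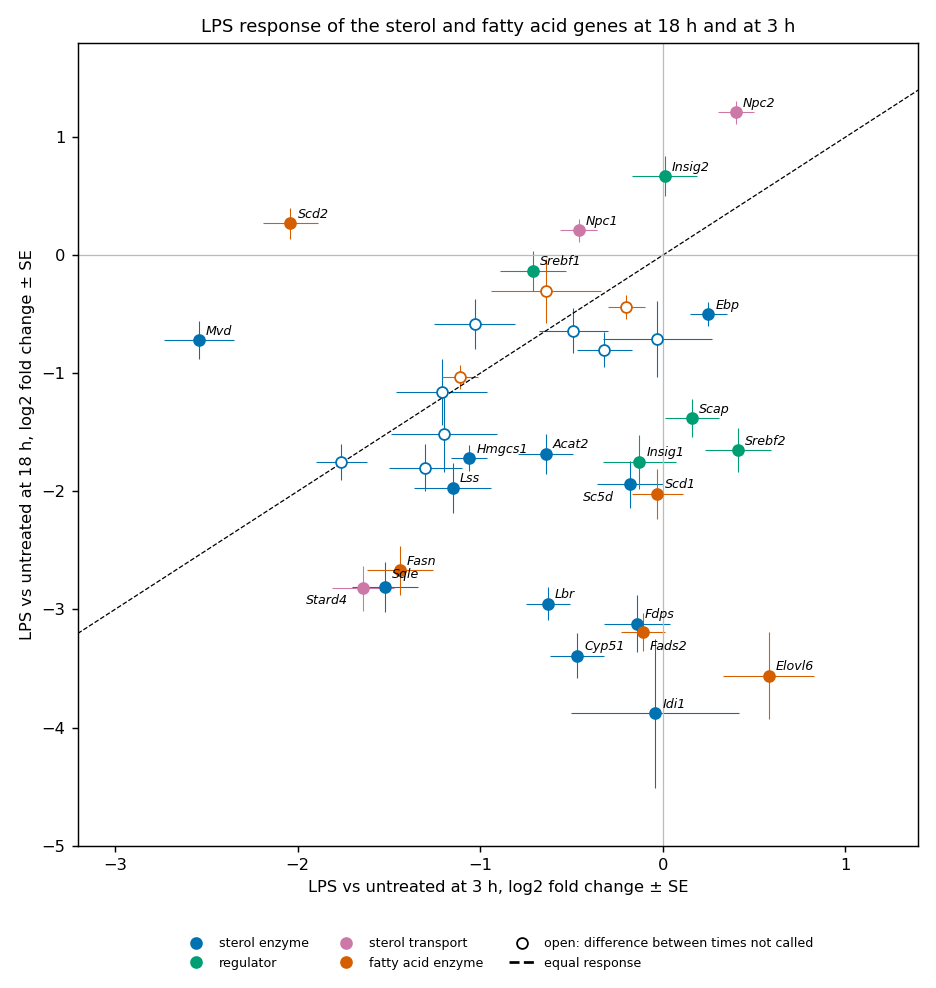
Log2 fold change ± SE of LPS against untreated cells at 18 h (vertical axis) and at 3 h (horizontal axis) for the 35 members, coloured by branch, with filled points where the difference between the times was called. Mvd and Scd2 lie above the dashed line of equal response at the left, while Elovl6, Fads2, Fdps and Cyp51 lie far below it.

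With S14 at 18 h, 7 members were called lower and 3 higher, 10 of 35 in all, near the background of 24.3% of all genes called (11.6% lower and 12.6% higher). Without replicate 4 of the untreated cells 5 were lower and 3 higher, of which 3 and 1 were sterol enzymes. The medians were -0.25 for the sterol enzymes and -0.03 for the fatty acid enzymes, against -0.02 over all genes. Of the sterol enzymes 6 of 19 fell and 1 rose, and of the fatty acid enzymes 1 of 8 rose. Lbr fell most among members above 10 CPM, with 46.2, 35.6, 39.9 and 35.9 CPM with S14, against 86.3, 86.9, 92.1 and 110 CPM in untreated cells (-1.25 ± 0.12, adjusted p = 5.32e-11). The groups did not overlap, and the fall was -1.16 without untreated replicate 4. Sqle had 25.5, 29.4, 33.2 and 34.6 CPM with S14, against 47.4, 46, 50.5 and 44.8 CPM in untreated cells (-0.62 ± 0.17, adjusted p = 0.00623). Srebf2 had 83.3, 104, 104 and 94.1 CPM with S14, against 106, 135, 127 and 241 CPM in untreated cells (-0.66 ± 0.18, adjusted p = 0.00796; -0.35, adjusted p = 0.00991 without untreated replicate 4). Lss had 20.5, 15.6, 19.3 and 20.4 CPM with S14, against 20.7, 25.8, 27.7 and 44.5 CPM in untreated cells (-0.64 ± 0.19, adjusted p = 0.00852). All 3 genes had S14 libraries below every untreated one, as had 10.8% of all genes. The call of Lss ended without untreated replicate 4 (-0.39, adjusted p = 0.113). The calls of Ebp (-0.31 ± 0.1) and Sc5d (-0.52 ± 0.18), a sterol desaturase, also ended without it (adjusted p = 0.146 and 0.114), and Insig1 was then called lower (-0.5, adjusted p = 0.0263). That of Ebp ended too without S14 replicate 1 (adjusted p = 0.0514) or 4 (adjusted p = 0.06), and that of Sc5d without S14 replicate 1, 2 or 3 or untreated replicate 2 or 3 (adjusted p = 0.0592 to 0.122). Idi1 had 6, 3, 7 and 6 reads with S14 and 12, 32, 21 and 47 reads untreated (-1.96 ± 0.49, adjusted p = 0.00251).

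Scd2, Npc2 and Mvd rose with S14 at 18 h on the TMM scale, but under spike-in scaling their log2 fold changes were -0.23, -0.15 and -0.41 (0.45, 0.12 and 0.01 without untreated replicate 4), and none of them passed the test there. Scd2 had 110, 110, 142 and 131 CPM with S14, against 50.9, 65.4, 76.6 and 81 CPM in untreated cells (0.84 ± 0.13, adjusted p = 3.48e-06). Npc2 had 3230, 3370, 3230 and 3210 CPM with S14, against 2360, 2190, 1960 and 1420 CPM in untreated cells (0.72 ± 0.1, adjusted p = 1.06e-06). In both genes every S14 library lay above every untreated library, as in 12.2% of all genes. Mvd averaged 52.2 ± 6.77 CPM with S14 and 36.7 ± 6.39 CPM in untreated cells (0.51 ± 0.15, adjusted p = 0.00925), with overlap between the groups. Of the other fatty acid enzymes, 7 did not pass the test, with log2 fold changes from -0.44 for Elovl6 to 0.32 for Acaca. Spike-in scaling called 28 members lower and left no member higher (13 lower without untreated replicate 4). Over all genes that scaling called 7639 (2290 without that library), where TMM called 2844.

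At 3 h S14 changed few members. It raised Acat2 and Hmgcs1 and lowered Npc1 and Scd2, against a background of 15.2% of all genes called (9.05% higher and 6.2% lower). Acat2 had 42.1, 51, 49.5 and 49.7 CPM with S14, against 36.3, 26.8, 32.1 and 35 CPM in untreated cells (0.57 ± 0.14, adjusted p = 0.00294). Hmgcs1 had 201, 204, 225 and 248 CPM with S14, against 140, 165, 183 and 198 CPM in untreated cells (0.36 ± 0.1, adjusted p = 0.00859). These are the enzymes of the first steps from acetyl-CoA, and in both every S14 library lay above every untreated one, as in 11.1% of all genes. Scd2 had 66.7, 71.5, 65.8 and 75.3 CPM with S14, against 87.4, 91.7, 104 and 103 CPM in untreated cells (-0.47 ± 0.13, adjusted p = 0.00995). Npc1 had 167, 157, 155 and 142 CPM with S14, against 206, 182, 199 and 188 CPM in untreated cells (-0.32 ± 0.1, adjusted p = 0.0206). In both every S14 library lay below every untreated one, as in 9.65% of all genes. The calls of Hmgcs1 and Npc1 ended without S14 replicate 4 (adjusted p = 0.07 and 0.0881) or without untreated replicate 1 (adjusted p = 0.0784 and 0.073), and that of Npc1 also without untreated replicate 3 (adjusted p = 0.0556). All 4 calls ended under spike-in scaling, with the signs kept. The median was 0.29 for the sterol enzymes, of which 14 of 19 had a log2 fold change above 0, and -0.13 for the fatty acid enzymes, against -0.03 over all genes. Of the 17 sterol enzymes that did not pass the test, Sc5d (0.48 ± 0.18, adjusted p = 0.0645) and Cyp51 (0.37 ± 0.14, adjusted p = 0.0854) had the smallest adjusted p.

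The S14 response differed between the times for 11 members, 8 with a lower and 3 with a higher log2 fold change at 18 h, against a background of 16.6% of all genes called (8.98% lower and 7.61% higher). Spike-in scaling called 21 lower and none higher (12 lower without untreated replicate 4 at 18 h). Over all genes that scaling called 4115 (1427 without that library), where TMM called 1944. Scd2 differed most among members above 10 CPM, by 1.31 ± 0.18 (adjusted p = 1.42e-06), since it was above untreated cells at 18 h and below them at 3 h; under spike-in scaling the difference was 0.11 (0.79 without untreated replicate 4). Lbr differed by -1.17 ± 0.17 (adjusted p = 1.17e-06): it averaged 39.4 ± 4.95 CPM with S14 and 93.9 ± 11.1 CPM untreated at 18 h, and 72.1 ± 5.21 CPM with S14 and 76.1 ± 3.77 CPM untreated at 3 h. At 3 h Scd2 was called lower with S14 and Lbr did not pass the test. Sc5d differed by -1 ± 0.25 (adjusted p = 0.0053) and Srebf2 by -0.95 ± 0.25 (adjusted p = 0.0101; -0.64, adjusted p = 0.000641 without untreated replicate 4). Hmgcs1 (-0.55 ± 0.14), Lss (-0.94 ± 0.26), Cyp51 (-0.73 ± 0.2), Idi1 (-2.33 ± 0.66) and Sqle (-0.73 ± 0.24) also had a lower response at 18 h. The call of Sqle was lost when any of 7 single libraries was left out, with adjusted p up to 0.108. Npc1 (0.53 ± 0.14) and Npc2 (0.73 ± 0.14) had a higher response at 18 h, which spike-in scaling turned to -0.45 and -0.24 (-0.18 and 0.03 without untreated replicate 4).

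S14 and LPS were compared directly at each time, at doses in different units, 30 µM and 100 ng/mL. At 18 h 28 members were higher and 2 lower with S14 than with LPS, against a background of 42.6% of all genes called (21.3% higher and 21.3% lower). At 3 h 21 were higher and 3 lower, against a background of 46.1% called (23.7% higher and 22.4% lower). At 18 h Cyp51 had 69.8, 61.5, 65.8 and 77.2 CPM with S14, against 9.84, 7.05, 8.5 and 8.08 CPM with LPS (3.03 ± 0.19, adjusted p = 2.6e-14). Fads2 had 42.1, 43, 48.8 and 62.2 CPM with S14, against 5.86, 8.05, 5.37 and 6.11 CPM with LPS (2.95 ± 0.16, adjusted p = 4.53e-19). Fdps (2.77 ± 0.24, adjusted p = 9.65e-11) and Stard4 (2.51 ± 0.19, adjusted p = 1.58e-14) were also among the 4 largest differences above 10 CPM. In all 4 of these genes, a demethylase, a desaturase, a prenyl transferase and a sterol carrier, every S14 library lay above every LPS library. Among all genes 20.4% lay above in this way and 20.7% below, and these 4 were picked for their large differences. Insig2 was lower with S14 than with LPS at 18 h, at 20.1 ± 1.45 CPM with S14 and 33.5 ± 5.19 CPM with LPS (-0.73 ± 0.17, adjusted p = 0.000428), and so was Npc2 (-0.49 ± 0.1, adjusted p = 0.000114). At 3 h Mvd had 46.5, 54.3, 55.4 and 54.4 CPM with S14, against 3.52, 6.96, 9.47 and 10.1 CPM with LPS (2.8 ± 0.19, adjusted p = 8.51e-17). The groups were far apart, and every S14 library lay above every LPS library, as in 21.1% of all genes. Stard4 (1.8 ± 0.16, adjusted p = 1.54e-12), Msmo1 (1.74 ± 0.14, adjusted p = 2.33e-11) and Sqle (1.62 ± 0.18, adjusted p = 1.01e-09) followed. Ebp, Npc2 and Elovl6 were lower with S14 than with LPS at 3 h, by -0.32 ± 0.1, -0.41 ± 0.1 and -1.05 ± 0.25. Spike-in scaling left 17 higher and 2 lower at 18 h, and 11 higher and 1 lower at 3 h. Without untreated replicate 4 at 18 h, which enters the shared estimate of the spread, it left 23 and 2 at 18 h and 14 and 2 at 3 h. Over all genes that scaling called 1915 at 18 h and 2232 at 3 h (3697 and 3499 without that library). The call of Idi1 at 18 h (adjusted p up to 0.114) was lost when any of 6 single libraries was left out, and that of Fdps at 3 h (0.45 ± 0.18, adjusted p up to 0.144) when any of 11 was.

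Untreated macrophages also changed with time in culture. At 18 h 9 members were lower and 1 higher than at 3 h, against a background of 38.8% of all genes called (19.6% lower and 19.2% higher). The direction depended on the scaling. With spike-in reads 16 members were called higher and 1 lower, and the members' median was 0.75 in place of -0.19. Without replicate 4 at 18 h that scaling called 1 higher and 2 lower. Over all genes it called 5639 and shifted the log2 fold change by a median of 0.83 (2422 and 0.34 without replicate 4 at 18 h). The members' shift was thus near that of all genes. Scd1 differed most, with 16.5, 23.1, 28.7 and 21.2 CPM at 18 h, against 74.9, 105, 108 and 109 CPM at 3 h (-2.14 ± 0.15, adjusted p = 1.56e-14). Hsd17b7, a sterol ketone reductase, had 9.1, 8.69, 11.9 and 11.6 CPM at 18 h, against 18.1, 21.8, 21.8 and 33.5 CPM at 3 h (-1.2 ± 0.24, adjusted p = 7.32e-05). Fads2 had 45.5, 51.1, 68.6 and 65.3 CPM at 18 h, against 112, 107, 102 and 124 CPM at 3 h (-0.94 ± 0.12, adjusted p = 1.21e-08). The untreated groups did not overlap in these 3 genes. Among all genes 16.9% were lower at 18 h without overlap and 15.8% higher. With spike-in reads Scd1 stayed called (-1.31, adjusted p = 0.00157), while Hsd17b7 (-0.34, adjusted p = 0.462) and Fads2 (-0.03, adjusted p = 0.934) did not. Without replicate 4 at 18 h that scaling called Scd1 (-1.75, adjusted p = 2.17e-08) and Hsd17b7 (-0.91, adjusted p = 0.0279) lower. Fads2 was then at -0.66 and not called (adjusted p = 0.0543). Fdft1, the squalene synthase, was lower by 0.78 ± 0.27 (adjusted p = 0.0203), a call lost without untreated replicate 3 at 18 h (adjusted p = 0.0542) or replicate 4 at 3 h (adjusted p = 0.0634); its exons overlap those of Ctsb on the other strand. Hmgcs1 (-0.68 ± 0.1), Sqle (-0.49 ± 0.16), Cyp51 (-0.43 ± 0.14), Msmo1 (-0.43 ± 0.13) and Scd2 (-0.49 ± 0.13) were lower at 18 h on the TMM scale, while spike-in scaling gave 0.17, 0.33, 0.46, 0.5 and 0.44 (-0.33, -0.13, -0.13, -0.16 and -0.24 without untreated replicate 4 at 18 h). Leaving out replicate 4 at 3 h ended the calls of Sqle, Cyp51 and Msmo1 (adjusted p = 0.101, 0.129 and 0.0576) and took the count of called members to 6. That of Sqle also ended without replicate 3 at 3 h (adjusted p = 0.0558) and that of Cyp51 without replicate 2 at 18 h (adjusted p = 0.0668). Lbr, the member called higher (0.3 ± 0.11, adjusted p = 0.0321), lost its call without replicate 4 at 18 h (0.22, adjusted p = 0.126) or without replicate 1, 2 or 3 at 3 h (adjusted p = 0.0872, 0.0584 and 0.0725).

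Of the members not yet described, Nsdhl, a sterol dehydrogenase, averaged 33.6 ± 3.47 CPM with S14, 20.4 ± 2.44 CPM with LPS and 35.3 ± 5.29 CPM untreated at 18 h, and 41.1 ± 8.76 CPM with S14, 27.8 ± 4.22 CPM with LPS and 34.7 ± 3.9 CPM untreated at 3 h. It was called with LPS at 18 h (-0.8 ± 0.15, adjusted p = 2.17e-05) and not with LPS at 3 h (-0.32 ± 0.15, adjusted p = 0.0731). Acaca and Tm7sf2 were called in none of the 9 comparisons on the TMM scale with all libraries. Tm7sf2 was called lower for LPS at 18 h by DESeq2 and by edgeR with its size factors. Spike-in scaling called Tm7sf2 lower for S14 (adjusted p = 0.00787) and LPS (adjusted p = 0.00488) at 18 h and for their differences between times. It called Acaca higher for untreated cells over time (adjusted p = 0.0225). These spike-in calls ended without untreated replicate 4 at 18 h. Without that library, TMM called Acaca higher with S14 than with LPS at 18 h (adjusted p = 0.0441). Genes of the same pathways outside the 35 members were counted from a list written from textbook knowledge. Of 21 tested on the sterol side, such as the SREBP proteases Mbtps1 and Mbtps2, LPS raised 5 and lowered 6 at each time, and S14 raised 3 and lowered 3 at 18 h and raised 3 and lowered 1 at 3 h. Under spike-in scaling S14 at 18 h lowered 17 of them and raised none (4 and none without untreated replicate 4). Of 19 tested on the fatty acid side, such as the acyl-CoA synthetases, LPS raised 6 and lowered 8 at 18 h and raised 4 and lowered 7 at 3 h, and S14 raised 8 and lowered 3 at 18 h and raised 3 and lowered 2 at 3 h. With S14 at 18 h, spike-in scaling raised 1 of these and lowered 10 (2 and 3 without untreated replicate 4). Over all genes the shares called were 55.6% and 55.5% with LPS at 18 h and 3 h, and 24.3% and 15.2% with S14. Their median log2 fold changes with LPS at 18 h were 0.1 on the sterol side and -0.08 on the fatty acid side, beside -1.72 and -1.53 for the member enzymes. These lists hold genes of unlike roles, and the difference between the lists was not tested.

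Positions on GRCm38, from the GENCODE M21 annotation, are given for the members with the largest changes, all of them protein-coding. Cyp51 (ENSMUSG00000001467) lies on chromosome 5 from 4081145 to 4104746, Fdps (ENSMUSG00000059743) on chromosome 3 from 89093588 to 89101959, Mvd (ENSMUSG00000006517) on chromosome 8 from 122433601 to 122443422 and Lbr (ENSMUSG00000004880) on chromosome 1 from 181815335 to 181843046. Scd1 (ENSMUSG00000037071) and Scd2 (ENSMUSG00000025203) lie on chromosome 19 from 44394455 to 44407879 and from 44293674 to 44306864, Fads2 (ENSMUSG00000024665) on chromosome 19 from 10062765 to 10101746 and Elovl6 (ENSMUSG00000041220) on chromosome 3 from 129532355 to 129638495.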

How the data were processed

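The authors deposited 2 tables of the 24 libraries. The first holds counts, whole reads per gene, which the authors deposited without normalization, and 7 ribosomal RNA entries (0.132% to 0.469% of reads) that were set aside here. The second is a signal that the authors deposited as normalized counts, where each library had been divided by its own size factor. Undoing this division gave whole reads for 100% of values within 8.59e-10; this table adds spike-in RNAs, 62 of them with reads. Reads differ between the tables for 13 members. Per the submitters' processing notes, cutadapt 1.18, FastQC, STAR 2.6.1a, featureCounts 1.6.4, Subread and DESeq2 were used with GRCm38. Their order, the strand setting and the annotation release were not stated in the sources.

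The filter was filterByExpr with the groups given (at least 10 counts in enough libraries and 15 in total), and TMM set the scale. In edgeR 4.0.16 (R 4.3.3) a quasi-likelihood model with robust settings estimated 6 group means from the 24 libraries, with 18 residual degrees of freedom and a spread shared between groups. Genes were called at a Benjamini-Hochberg adjusted p under 0.05 over 11717 genes. The SE was taken from the log2 fold change and the F statistic. Alternatives were DESeq2 1.42.0, its size factors in edgeR, no filter, the second table's reads, spike-in scaling (also leaving out replicate 4 of untreated cells at 18 h), a block for replicate number, fits of the compared groups alone, and leaving out each library. Values in every library are given for called members whose larger group mean was 10 CPM or more, ranked by absolute log2 fold change, up to 6 for each treatment against untreated cells and up to 4 in the other comparisons. Members outside this rule are named for their role, or because a call of theirs depended on 1 library, which was chosen after their values were seen. The members, the other pathway genes and these rules were chosen with earlier results of these data known, so the patterns are described and no set of genes was tested. Some genes of these pathways are not reported here. The depth of 3334182 to 6350251 reads per library limits members with few reads, such as Idi1 with 346 in all. Comparisons of S14 and of LPS with untreated cells at a time share the same 4 untreated libraries. No 2 libraries held identical counts.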

Additional observations from a re-analysis of the deposited data

Results flagged for a closer look

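In 13 of 210 groups of 4 libraries (35 members in 6 groups), 1 library stood far from the other 3; chance flags about 1 in 20 groups. With S14 at 18 h, Npc2 had 3370 CPM in replicate 2 and 3210 to 3230 CPM in the others. With LPS at 18 h, replicate 2 had 23.2 CPM of Srebf1 (27.9 to 28.4 CPM in the others) and 1.01 CPM of Elovl6 (0.655 to 0.703 CPM in the others). For Elovl6 this was 4 reads against 3 in each of the others, too few to set the library apart. In untreated cells at 18 h, Ebp had 150 CPM in replicate 4 and 110 to 114 CPM in the others.

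With S14 at 3 h, replicate 1 was low for Acat2 (42.1 CPM against 49.5 to 51 in the others), Mvd (46.5 against 54.3 to 55.4) and Scd1 (69.8 against 88.4 to 89.8), and replicate 4 was high for Acly (108 against 91 to 92.7). With LPS at 3 h, replicate 1 was high for Nsdhl (34.1 CPM against 25.3 to 26.2) and replicate 4 for Scap (54.5 against 40.3 to 42.3). In untreated cells at 3 h, replicate 4 was low for Mvk (14.3 CPM against 20 to 21.1), replicate 3 high for Acly (104 against 91 to 92.8) and replicate 1 low for Scd1 (74.9 against 105 to 109).

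The response differed between 18 h and 3 h by the test of the difference itself. For S14 the log2 fold change at 18 h minus that at 3 h was 1.31 for Scd2, -1.17 for Lbr, -1 for Sc5d and -0.95 for Srebf2. For LPS it was -4.14 for Elovl6, -3.08 for Fads2, -2.98 for Fdps and -2.92 for Cyp51.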

How the results depend on the processing

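Spike-in scaling moved the counts of called members most: to 28 for S14 against untreated cells at 18 h, to 7 for LPS at 3 h, to 19 and 12 for S14 against LPS at 18 h and 3 h, to 21 for the S14 difference between times and to 17 for untreated cells over time (3 without replicate 4 at 18 h). Over all genes it called 7639 (2844 with TMM) for S14 at 18 h, 3296 (6500) for LPS at 3 h, 1915 (4996) and 2232 (5399) for S14 against LPS at 18 h and 3 h, and 4115 (1944) for the S14 difference between times. For S14 at 3 h it called 0 members by edgeR, and 0 without replicate 4 of untreated cells at 18 h (1 and 4 at an unadjusted p under 0.05), and 374 and 798 genes in all, where TMM called 1786; without that library it called 4018 genes for LPS at 18 h (6517 with TMM), 3499 for S14 against LPS at 3 h and 2422 for untreated cells over time (4547 with TMM). For S14 at 18 h it reversed Npc2 (-0.15, adjusted p = 0.626) and Scd2 (-0.23, adjusted p = 0.538). The cause of these shifts was not tested. A fit of the compared groups alone called 7 members for S14 at 3 h, and Srebf2 then had an adjusted p of 0.0725 for S14 at 18 h.

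Leaving out single libraries gave 2 to 6 called members for S14 at 3 h (2 without S14 replicate 4 or untreated replicate 1), 6 to 12 for untreated cells over time, 8 to 12 for S14 and 29 to 32 for LPS at 18 h, 20 to 23 for LPS at 3 h, 29 to 31 and 23 to 26 for S14 against LPS at 18 h and 3 h, and 10 to 13 and 22 to 24 for the S14 and LPS differences between times. Over 42 member values, 8 of 1008 such tests lost the call and none turned sign. Of 336 other tests 18 lost it and 2 turned sign. The 42 values were picked for large changes, and many left-out libraries lay outside the comparison, so few losses were to be foreseen. Over all called members, calls lost at least once were 3 of 10 for S14 and 1 of 30 for LPS at 18 h, and 2 of 4 and 4 of 22 at 3 h. They were 1 of 30 and 1 of 24 for S14 against LPS at 18 h and 3 h. For the S14 and LPS differences between times they were 1 of 11 and 3 of 24, and 5 of 10 for untreated cells over time.

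The replicate numbers were not taken as pairs: of 60 same-number pairs of libraries, 1 had a correlation of deviations over 0.1 (-0.101 to 0.143), and 17 of 24 libraries were closest to their own number, a hint from the data and not the design. The fit with a replicate block called 12, 32, 6 and 23 members for S14 and LPS at 18 h and at 3 h, 30 and 25 for S14 against LPS, 12 and 24 for the differences between times and 10 for untreated cells over time, and it ended no call of a named value. Members with few reads, such as Idi1, are limited by depth.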

Other observations

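The summed level of the 19 sterol enzymes varied within the groups at 3 h in a shared way. It was 1140, 1250, 1420 and 1470 CPM in replicates 1 to 4 with S14, 609, 662, 708 and 747 CPM with LPS, and 1010, 1060, 1230 and 1330 CPM in untreated cells. In each of these 3 groups the library numbered 1 had the lowest and the library numbered 4 the highest sum. At 18 h the sums were 763, 738, 797 and 856 CPM with S14, 320, 310, 334 and 331 CPM with LPS, and 913, 893, 978 and 1080 CPM in untreated cells, with the library numbered 2 lowest in each group. This pattern was noticed after the values were seen, and the sources used here do not say what libraries with the same number share.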
